A study of Homo sapiens with 8 samples.

Results

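The histone genes of HEK293T cells were followed through deprivation of a single essential amino acid, by the relative level of ribosome-protected reads on their mRNAs. Members were taken by symbol from GENCODE release 44 on the GRCh38 build. The replication-dependent class holds the numbered genes of the H1, H2A, H2B, H3 and H4 families, and the variant class holds H1-10, H2AZ1, H2AZ2, H2AX, H3-3A, H3-3B and MACROH2A1. The annotation has 79 such genes, of which 72 are replication-dependent and 7 are variants. Of these, 64 were listed in at least 1 library (57 replication-dependent and all 7 variants), among 12235 listed genes in all. The members were selected on their symbols, and as a set they were chosen by their RPKM ratios to sufficient medium, which were known when the set was proposed. Every ratio below is therefore a description and carries no test.

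Ribosome profiling sequences the short mRNA fragments that ribosomes shield from nuclease, so that reads on a coding sequence count the ribosomes that occupied it. HEK293T is a cell line of human embryonic kidney origin that carries the large T antigen of SV40. Cells received control medium with all amino acids (Suff, titled Control in the labels), or the same medium without arginine (Arg-), leucine (Leu-) or methionine (Met-), over night by the labels; all media contained dialyzed serum. Each condition was profiled from cells pre-treated with cycloheximide (CHX), a drug that arrests elongating ribosomes, and from cells without it, which gave 8 libraries with 1 library per condition.

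The values are therefore those of 8 single libraries of 1 cell line, and no value has a replicate error. RPKM divides the reads of an mRNA by its coding length and by the depth of the library, and is a relative unit. A higher value can mean more ribosomes on an mRNA, more of that mRNA, or fewer reads elsewhere. These cannot be told apart, because no RNA libraries were analysed here and the unit gives no absolute level. The intervals given below are exact 95% intervals from recovered read counts. They treat each read as independent and cover counting error only. PCR copies are not independent molecules, so the intervals are too narrow where such copies remain. Depth ranged from 538222 reads in Met- with CHX to 6434043 in Leu- with CHX, and from 1302523 to 3139745 without CHX. A listing floor of 64 reads with CHX and of 5 without CHX was set here as the usual smallest value. A gene missing from a library was taken to be below that floor in uniquely mapped reads, and may have been at 0. Bounds and counts that use the floor hold only as far as this setting does. Of the genes that these cells are known to express, VIM and NEFM were listed in every library and NEFL and LIN28B in all but Met- with CHX. KRT18 was missing from Suff and Met- with CHX, KRT8 from every library with CHX, and PAX2 was listed only in Leu- and Met- cells without CHX. Of the markers of other cell types, PTPRC, CD3E, ALB and PECAM1 were listed in no library. COL1A1, a collagen of connective tissue cells, stood at 20.2 RPKM in Suff with CHX and at 1.59 to 4.19 RPKM without CHX, and was not listed in the other libraries.

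Histones package DNA into nucleosomes, in which a tetramer of H3 and H4 and a pair of H2A-H2B dimers are wrapped by DNA, and the linker histone H1 binds where the DNA enters and leaves. Replication-dependent histone genes lie in clusters, have no introns and are expressed in S phase, when new DNA has to be packaged. Their mRNAs end in a conserved stem-loop instead of a poly(A) tail. The stem-loop is bound by SLBP, which is needed for processing, export and translation of these mRNAs, and the mRNAs are quickly degraded when DNA synthesis stops. Variants such as H3.3 (H3-3A, H3-3B) and H2A.Z (H2AZ1, H2AZ2) are made throughout the cell cycle from polyadenylated mRNAs and are placed in chromatin outside replication.

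The stem-loop separates the classes and is printed here because it is the sequence feature that the mRNAs share and that the rule did not use. The capitals mark a match to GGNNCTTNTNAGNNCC, searched on the transcript strand after the stop codon, and the lower case letters are 5 bases on either side, fewer where the annotated transcript ends. Each sequence is from the GRCh38 transcripts of GENCODE, read 5′ to 3′.
H3C2, chr6:26031592-26031617 (minus strand): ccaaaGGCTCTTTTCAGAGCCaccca
H4C3, chr6:26104312-26104337 (plus strand): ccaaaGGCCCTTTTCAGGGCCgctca
H2AC6, chr6:26124664-26124689 (plus strand): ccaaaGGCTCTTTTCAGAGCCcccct
H2AC11, chr6:27133510-27133535 (plus strand): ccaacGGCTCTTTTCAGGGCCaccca
H2BC11, chr6:27132316-27132341 (minus strand): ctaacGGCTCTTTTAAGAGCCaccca
H1-2, chr6:26055740-26055764 (minus strand): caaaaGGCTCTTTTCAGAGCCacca
H2AX, chr11:119094893-119094918 (minus strand): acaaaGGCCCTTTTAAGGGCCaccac

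The motif was found in 70 members, 69 of the 72 replication-dependent genes and H2AX alone among the variants. Outside the rule it was found in 32 of 19596 genes (0.163%). It began 22 to 67 bases after the stop codon, with a median of 35. The form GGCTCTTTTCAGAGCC was shared by 40 genes of the H1, H2A, H2B and H3 families, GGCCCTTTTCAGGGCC by 10 genes of H4, and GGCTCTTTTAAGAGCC by 9 genes that include H2BC4, H2BC5, H2BC11 and H2BC12. Of the 72 replication-dependent genes, 55 lay on chromosome 6 and 13 on chromosome 1, and 71 consisted of 1 exon.

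Copies of a family encode nearly the same protein but differ at synonymous bases, and the authors kept only uniquely mapped reads. The first 10 codons of H3 genes are shown because they let footprints be assigned to a copy. Capitals mark bases that differ from H3C2, and all are on GRCh38.
H3C2, chr6:26032031-26032060 (minus strand): atggctcgtactaaacagacagctcggaaa
H3C10, chr6:27810074-27810103 (plus strand): atggcGcgtacGaaGcagacTgctcgCaaG
H3C1, chr6:26020490-26020519 (plus strand): atggctcgCactaaGcaAacTgctcggaaG
H3-3A, chr1:226064352-226064381 (plus strand): atggctcgtacAaaGcagacTgcCcgCaaa
H3-3B, chr17:75779145-75779174 (minus strand): atggcCcgAacCaaGcagacTgctcgTaaG
Over the 411 bases of the coding sequence, H3C10 differed from H3C2 at 66 bases, H3C1 at 65, H3-3A at 90 and H3-3B at 93. Over windows of 30 bases, the share found in no other gene was 91.1% for H3C2, 96.3% for H3C10, 100% for H3C1 and H3-3A and 56.0% for H3-3B. For 9 replication-dependent genes no window was unique, and 7 of these were listed in no library. The 2 that were listed nevertheless, H3C4 and H4C11, had reads that cannot be told apart from those of other copies in this annotation. RPKM was scaled by the whole coding length, so a copy that lost reads to the unique mapping can be understated, by an amount that was not tested. The 15 unlisted genes were H1-1, H1-5, H1-7, H1-8, H2AC1, H2AC14, H2AC18, H2AC19, H3C14, H3C15, H4C6, H4C7, H4C12, H4C14 and H4C15. Of these, H1-1 had 100% unique windows and H1-5 97.9%.

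Histone mRNAs were among the most heavily occupied of the cell. In sufficient medium, replication-dependent genes took 12.5% of all reads on coding sequences with CHX (interval 12.5 to 12.6%) and 4.71% without CHX (4.69 to 4.74%). Arginine deficiency gave the largest share in each series, at 17.1% with CHX (17.1 to 17.2%) and 11.5% without CHX (11.4 to 11.5%). Methionine deficiency gave the smallest, at 4.46% with CHX (4.41 to 4.52%) and 2.41% without CHX (2.39 to 2.44%). Leucine deficiency stood between sufficient and arginine-deficient medium, at 15.0% with CHX (15.0 to 15.1%) and 6.45% without CHX (6.41 to 6.49%). The 8 intervals do not overlap within either series, but they hold no spread between cultures.

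**Figure D1:**
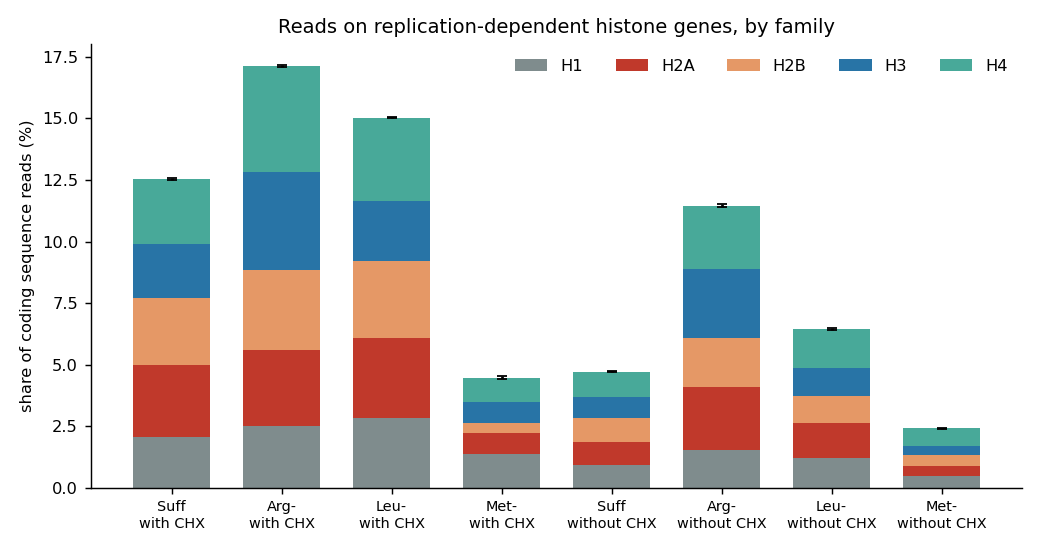
Share of all coding sequence reads, in percent, that fell on replication-dependent histone genes in each of the 8 libraries, stacked by family, with exact 95% counting intervals of the total. In each series the Arg- bar is the highest, at 17.1% with CHX and 11.5% without CHX, and the Met- bar is the lowest, at 4.46% and 2.41%.

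Relative to Suff, the share without CHX was 2.43 times as large in Arg- cells, 1.37 times in Leu- cells and 0.512 times in Met- cells. With CHX the corresponding ratios were 1.37, 1.20 and 0.356. The families did not move alike. Without CHX, arginine deficiency multiplied the H3 share by 3.32, that of H2A by 2.79, H4 by 2.50, H2B by 2.0 and H1 by 1.65. With CHX the ratios in Arg- cells were 1.78 for H3 and 1.65 for H4, against 1.20 for H1, 1.20 for H2B and 1.07 for H2A. Under methionine deficiency with CHX the H2B share was 6.99 times smaller, from 2.71% to 0.388%, while the H1 share was 1.52 times smaller, from 2.07% to 1.36%. The H2B share summed 16 genes in Suff but only 7 in Met-, and genes below the floor added no reads, so its fall can be overstated. The H1 share summed 4 genes in each. Without CHX the Met- ratios lay closer together, between 0.438 for H3 and 0.505 for H1, with H4 at 0.701. The share of the 7 variants together was 0.450% of reads with CHX and 0.550% without CHX in Suff, and ranged from 0.294% to 0.561% in the starved libraries.

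In ranks, replication-dependent genes held 21 of the top 50 places by RPKM in Suff with CHX, 29 in Arg-, 31 in Leu- and 12 in Met-. Without CHX they held 10, 25, 21 and 7 places in the same order. H3C2 was the highest gene of all in Suff and Arg- cells without CHX and in Arg- cells with CHX. H4C3 was the highest in Leu- cells of both series and in Met- cells without CHX.

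For single genes, ratios were formed as log2((RPKM + 1)/(RPKM in Suff + 1)) over genes listed in both libraries with a mean RPKM of at least 10. Without CHX, 49, 47 and 47 replication-dependent genes entered the comparisons of Arg-, Leu- and Met- with Suff. All 49 were higher in Arg- cells, against 48.6% of all 7448 genes, with a median log2 ratio of 1.23, against -0.02 over all genes. Of them, 35 were at least 2-fold higher (8.23% of all genes) and none was at least 2-fold lower (5.95%). The smallest log2 ratio was 0.13 and the largest 2.73, and the counting interval lay above 0 for 47 of the 49. That last count was not made over all genes, and intervals are narrower for genes with many reads.

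Methionine deficiency gave the opposite picture. Without CHX the median log2 ratio was -1.13, against 0.32 over all 7884 genes, and 7 of 47 genes were higher (65.6% of all genes) while 40 were lower. At least 2-fold lower were 28 genes (5.34% of all genes), and 4 were at least 2-fold higher (20.2%). Among the 4 were H4C11, H3C4 and H1-6; the last pair was named after the values were seen, and had at most 11 (H3C4) and 28 (H1-6) reads in either library. Leucine deficiency without CHX left the class near the other genes, with a median of 0.35 against 0.14 over 7558 genes, 35 of 47 genes higher (61% of all genes), 6 at least 2-fold higher (6.85%) and 1 at least 2-fold lower (2.06%).

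With CHX, the order of Met- below the other media was kept, and the excess in Arg- cells was smaller. The median over 35 genes in Met- cells was -1.63, against 0.89 over all 1890 genes, with 1 gene higher (74.8% of all genes), 34 lower, 26 at least 2-fold lower (9.79%) and 1 at least 2-fold higher (46.7%). The median and these shares over all genes are limited by the listing floor, since 2021 genes were listed in Met- against 5466 in Suff. Genes low in Met- cells could drop out, so the values over all genes are raised by that filter. Among the 677 genes with enough reads in Suff to stay above the floor after a 2-fold fall, with unlisted genes counted as lower, 49% were at least 2-fold lower in Met- cells, against 32 of 40 replication-dependent genes and 3 of 6 variants. In all, 15 replication-dependent genes of the Suff library were below the listing floor in Met- cells and have no ratio. For 7 of these, among them H2BC18, H2BC13 and H2AC15, the floor itself lay below the Suff value. H2BC18, at 2680 RPKM in Suff, was lower in Met- cells by at least 3.09 on the log2 scale by this floor, but only 12.8% of its windows were unique. In Arg- cells the median over 49 genes was 0.35, against -0.23 over 5074 genes, with 39 genes higher (41% of all genes), 5 at least 2-fold higher (16.6%) and 0 at least 2-fold lower (19.7%). In Leu- cells the median over 50 genes was 0.20, against 0.02 over 5208 genes, with 32 genes higher (51% of all genes), 2 at least 2-fold higher (12.1%) and 3 at least 2-fold lower (7.28%).

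**Figure D2:**
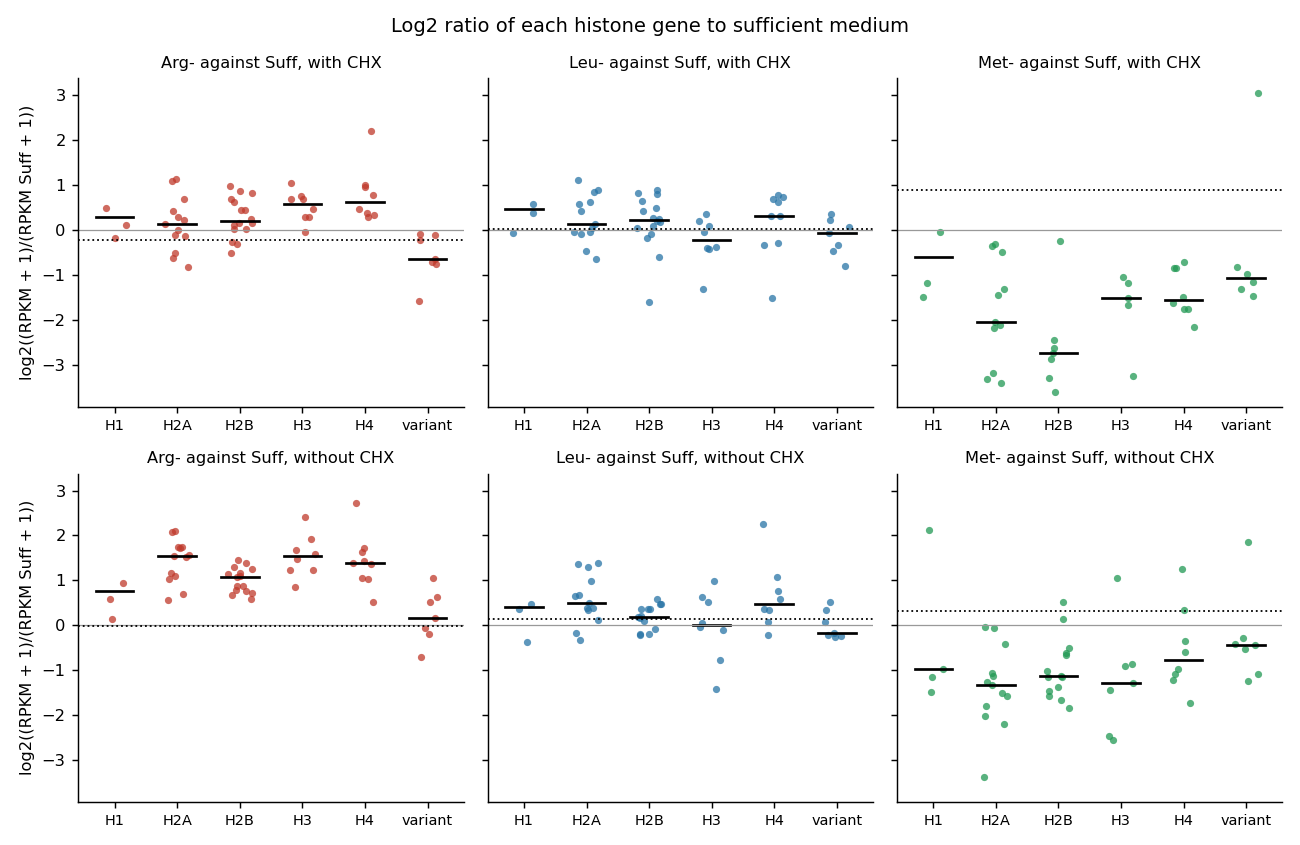
Log2 ratio to Suff of each histone gene, by family for replication-dependent genes and as 1 column for variants, in each starved library; points are genes (1 is not drawn), thick bars are medians of the column over all its genes, and the dotted line is the median of all genes of that comparison. All points of the replication-dependent families lie above 0 in Arg- without CHX, and most lie below 0 in both Met- panels.

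Coding length moved with the ratios of the remaining genes. The listed replication-dependent genes have coding sequences of 312 to 666 bases, with a median of 387. Genes outside the rule with coding sequences of that length had median log2 ratios without CHX of -0.33 in Arg- cells (1275 genes), -0.11 in Leu- cells (1293 genes) and -0.16 in Met- cells (1295 genes). With CHX these medians were -0.80 (986 genes), -0.44 (1023 genes) and -0.11 (358 genes). The last is limited by the listing floor, since short genes low in Met- cells could drop out. In Arg- cells of both series the median of the short genes thus stood below that of all genes, while the histone median stood above it. In Met- cells the median of the listed histone genes was below that of the other listed short genes in both series.

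The same genes were compared between the series for each medium, each series with its own Suff library. In Met- cells, 32 of 35 replication-dependent genes were lower in both series (20.9% of 1797 genes) and 21 were at least 2-fold lower in both (2.89%), with the same limit of the listing floor on the shares over all genes. Of the remaining members, 1 was higher in both (49.6% of those genes), and H4C3 and H4C11 differed in direction. In Arg- cells, 37 of 47 were higher in both (25.8% of 4765 genes), 0 were lower in both (45.2%) and 10 differed in direction, 5 of them H2A genes, though H1-3, H2AC11, H2AC17 and H3C12 stood above the median of all genes with CHX as well. In Leu- cells, 28 of 46 were higher in both (37.8% of 4871 genes), 9 were lower in both (33.4%) and 9 differed in direction. The 2 series differ in CHX, in the listing floor and in the steps by which the files were made, and these cannot be told apart.

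H3 and H4 form the core tetramer of the nucleosome. H3C2, which encodes H3.1, was the highest H3 gene, at 8476 RPKM in Suff, 32195 in Arg-, 13197 in Leu- and 4537 in Met- cells without CHX, and at 23566, 48822, 27170 and 11512 with CHX. Arg- was the highest and Met- the lowest library in both series. Its log2 ratio in Arg- cells was 1.93 without CHX (interval 1.89 to 1.96) and 1.05 with CHX (1.03 to 1.07), and in Met- cells it was -0.90 (-0.97 to -0.84) and -1.03 (-1.09 to -0.97). H3C10 and H3C1 encode the same protein. H3C10 had log2 ratios without CHX of 1.68 in Arg-, 0.52 in Leu- and -1.28 in Met- cells, and with CHX of 0.77, 0.36 and -1.50. H3C1 had 1.60, -0.10 and -1.44 without CHX and 0.70, -0.40 and -1.67 with CHX, so that Leu- cells stood below Suff for this copy. Together H3C2, H3C10 and H3C1 held 86.2% to 94.6% of the summed RPKM of replication-dependent H3 in the 8 libraries.

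A smaller H3 gene differed under leucine deficiency. H3C13, a copy on chromosome 1 with 15.4% unique windows, stood at 702, 1648, 260 and 120 RPKM in Suff, Arg-, Leu- and Met- cells without CHX. It was the lowest replication-dependent gene in Leu- without CHX by log2 ratio (-1.43, interval -1.68 to -1.19) and had -1.31 (-1.44 to -1.19) with CHX, while its Arg- ratios were 1.23 and 0.28. H3C12 was among the lowest in Met- cells, with log2 ratios of -2.47 without CHX and -3.24 with CHX. In Leu- cells the H3 median was 0.01 without CHX and -0.22 with CHX, which was the lowest of the 5 families in both series.

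H4C3 was the highest H4 gene, at 7116 RPKM in Suff, 23594 in Arg-, 15102 in Leu- and 9063 in Met- cells without CHX, and at 20356, 39471, 34941 and 12350 with CHX. Without CHX all 3 starved libraries lay above Suff, and with CHX the Met- library lay below it. H4C5 and H4C8 encode the identical H4 protein and were lower in Met- cells of both series, with log2 ratios of -1.73 and -1.22 without CHX and -1.77 and -1.63 with CHX. H4C2 had the smallest excess of the larger H4 genes in Arg- cells, with 0.52 without CHX and 0.29 with CHX. H4C11 had the largest log2 ratio of all members in Arg- cells, 2.73 without CHX (2.60 to 2.87) and 2.21 with CHX (2.15 to 2.28), but none of its windows was unique. H4C9 was listed in only 3 libraries, at 185 RPKM in Suff and 64.4 in Leu- cells with CHX and 17.4 in Suff without CHX.

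H2A and H2B pair as dimers that bind the tetramer from outside. H2AC6 had the highest Arg- ratio of the larger H2A genes, and stood at 3255 RPKM in Suff, 13722 in Arg-, 8425 in Leu- and 3167 in Met- cells without CHX, and at 8762, 18814, 16141 and 7051 with CHX. Its Met- library was near Suff, with log2 ratios of -0.04 (interval -0.12 to 0.04) without CHX and -0.31 (-0.39 to -0.23) with CHX. H2AC8, at 133 RPKM in Suff without CHX, had ratios close to those of H2AC6 where it was listed. They were 2.11, 1.39 and -0.07 without CHX, and 1.13 in Arg- and 1.12 in Leu- cells with CHX. In Met- cells with CHX, H2AC8 was below the listing floor. From 607 RPKM in Suff this was a fall of at least 0.99 log2, larger than that of H2AC6. H2AC11 behaved otherwise. It stood at 3803, 11088, 5975 and 1278 RPKM without CHX in the order Suff, Arg-, Leu- and Met-, and at 12863, 11698, 12111 and 1215 with CHX. Its Met- log2 ratio with CHX was -3.40 (-3.59 to -3.23), from 255 reads.

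H2AC12, H2AC16 and H2AC25 were lower than Suff in Arg- cells with CHX, with log2 ratios of -0.51, -0.61 and -0.82, and higher without CHX, with 0.56, 1.10 and 1.16. H2AC17 had 1.56 in Arg- cells without CHX and -0.10 with CHX. In Met- cells all 4 were lower in both series, from -1.13 for H2AC17 without CHX to -3.33 for H2AC12 with CHX. Over the 11 H2A genes compared in Met- cells with CHX the log2 ratios ran from -3.40 to -0.31.

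Among H2B genes, H2BC11 was the highest, at 5671 RPKM in Suff, 9591 in Arg-, 6544 in Leu- and 2563 in Met- cells without CHX, and at 18094, 20173, 20625 and 2944 with CHX. H2BC5 and H2BC4 had Met- log2 ratios with CHX of -3.60 (interval -3.78 to -3.42) and -3.29 (-3.48 to -3.10), and without CHX of -1.85 and -0.62. With CHX, H2BC12 stood apart from the other H2B genes in Met- cells, at -0.25 (-0.40 to -0.11) against -3.60 to -2.45, but only 13.1% of its windows were unique. Without CHX it had -0.50, close to H2BC4, and H2BC14 and H2BC3, named after their values were seen, were above Suff, with 0.53 and 0.14 from at most 24 reads in either library. In Arg- cells H2BC11, H2BC5 and H2BC4 had log2 ratios of 0.76, 0.88 and 1.10 without CHX and of 0.16, 0.24 and 0.44 with CHX. All 15 H2B genes compared in Arg- cells without CHX were higher than Suff. H2BC9 and H2BC10 were rare, at 118 and 92.0 RPKM in Suff with CHX and 8.36 each without CHX; in Leu- cells with CHX they had log2 ratios of -1.60 and 0.89.

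H1 is the linker histone, with few arginines and many lysines. H1-2 stood at 7289 RPKM in Suff, 10871 in Arg-, 9317 in Leu- and 3739 in Met- cells without CHX, and at 12672, 17760, 18840 and 12360 with CHX. Its Met- log2 ratio was -0.96 (interval -1.02 to -0.91) without CHX and -0.04 (-0.08 to 0.01) with CHX, so that the interval held 0 in the latter. H1-4 was lower in Met- cells of both series, with -1.48 and -1.17, and H1-3 likewise, with -1.15 and -1.48. H1-3 had the smallest Arg- ratio of the class without CHX (0.13, interval 0.04 to 0.22).

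The variants were spread around Suff in Arg- and Leu- cells without CHX, with 4 and 3 of 7 higher (48.6% and 61% of all genes), and most were lower in Met- cells. Their median log2 ratio in Arg- cells was 0.17 without CHX, with 1 of 7 at least 2-fold higher (8.23%), and -0.64 with CHX, with none of 7 higher (41%) and 1 at least 2-fold lower (19.7%), although H2AZ1, H2AZ2 and MACROH2A1 stood above the median of all genes there. In Met- cells the medians were -0.43 and -1.07, with 1 of 7 and 1 of 6 higher (65.6% and 74.8% of all genes, the latter with the limit of the listing floor). In Leu- cells they were -0.18 and -0.07. H1-10, a linker histone variant, was the only variant above Suff in Met- cells. It stood at 532, 598, 760 and 1924 RPKM without CHX in the order Suff, Arg-, Leu- and Met-, and at 622, 382, 730 and 5135 with CHX. The Met- log2 ratio was 1.85 (interval 1.74 to 1.97) without CHX and 3.04 (2.93 to 3.16) with CHX.

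H2AZ1, the main H2A.Z gene, stood at 4006, 3844, 3449 and 1881 RPKM without CHX and at 2858, 2705, 2724 and 1026 with CHX, in the same order. Arg- and Leu- cells were within 0.22 log2 of Suff and Met- cells lower by over 2-fold, with -1.09 and -1.48. H2AZ2 was rarer, at 494, 706, 630 and 405 RPKM without CHX, and was below the floor in Met- cells with CHX. H3-3A and H3-3B encode the same H3.3 protein. H3-3A stood at 5770, 5079, 4837 and 4031 RPKM without CHX and at 1859, 1093, 1476 and 938 with CHX, so each starved library was below Suff. H3-3B differed in Arg- cells without CHX, with 810, 1245, 717 and 344 RPKM and a log2 ratio of 0.62 (interval 0.49 to 0.75), against -0.18 for H3-3A. With CHX the Arg- ratios were -0.64 for H3-3B and -0.77 for H3-3A, and the latter was -1.49 where the same transcript was used in both libraries.

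H2AX, the variant phosphorylated at DNA breaks, has both the stem-loop and a polyadenylated form. It stood at 689, 1420, 727 and 510 RPKM without CHX and at 2537, 850, 1461 and 1429 with CHX. Arg- was the highest library without CHX and the lowest with CHX, with log2 ratios of 1.04 (interval 0.91 to 1.17) and -1.58 (-1.66 to -1.49). MACROH2A1, a larger H2A variant with a macrodomain, stood at 374, 228, 317 and 281 RPKM without CHX and at 388, 362, 496 and 156 with CHX.

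**Figure D3:**
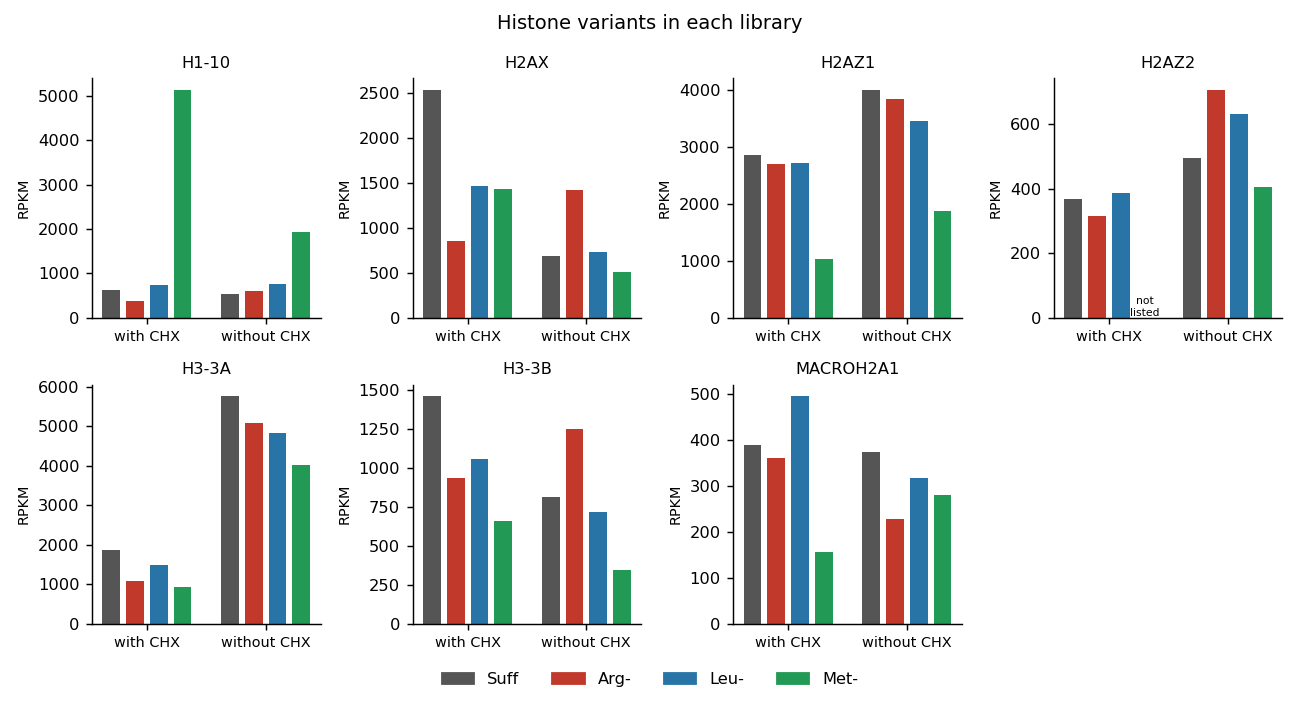
RPKM of the 7 variants in each library, with a panel and scale per gene; bars are single libraries without error. H1-10 is highest in Met- cells of both series (5135 and 1924 RPKM), and H2AX has its Arg- bar lowest with CHX (850) and highest without CHX (1420).

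Members with and without the stem-loop are nearly the same genes as the 2 classes, so their values are no separate result. Members with the motif, H2AX included, had median log2 ratios of 1.23 in Arg-, 0.35 in Leu- and -1.13 in Met- cells without CHX, and of 0.30, 0.19 and -1.63 with CHX. Members without it had 0.17, -0.18 and -0.41 without CHX, and -0.22, 0.07 and -1.07 with CHX. By position, replication-dependent genes on chromosome 6 had medians of 1.24, 0.35 and -1.10 without CHX and 0.36, 0.20 and -1.65 with CHX, in the same order. Those on chromosome 1, 5 to 7 genes, had 1.23, 0.35 and -1.47 without CHX and 0.28, -0.05 and -2.11 with CHX.

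The balance between variants and replication-dependent copies differed between libraries. H3.3 genes held 24.1% of the summed RPKM of H3 in Suff, 8.40% in Arg-, 16.5% in Leu- and 32.5% in Met- cells without CHX. With CHX the order of the libraries was the same at a lower level, with 5.73%, 2.05%, 4.05% and 7.08%. H2A.Z genes held 15.6%, 6.40%, 9.92% and 16.9% of H2A without CHX, and 3.99%, 3.58%, 3.49% and 4.12% with CHX, where H2AZ2 was missing from the Met- value. The H3.3 share in Suff was thus lower with CHX than without it, and copies that lost reads to the unique mapping may enter these shares at less than their level. H1-10 held 3.59%, 2.46%, 3.93% and 20.8% of H1 without CHX, and 1.91%, 0.980%, 1.65% and 19.5% with CHX.

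**Figure D4:**
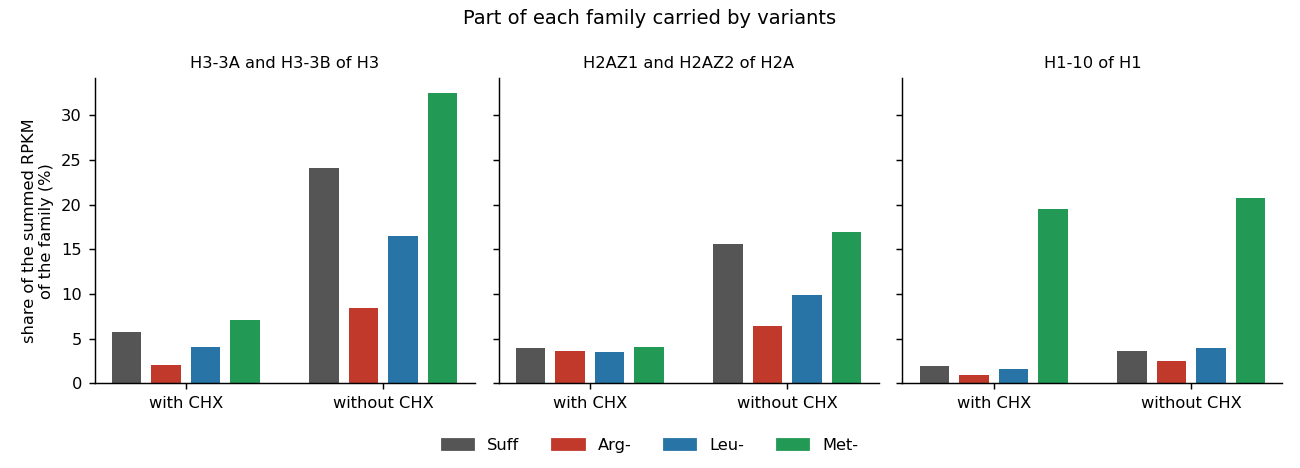
Share in percent of the summed RPKM of a family that was held by H3-3A and H3-3B (of H3), by H2AZ1 and H2AZ2 (of H2A), and by H1-10 (of H1), in each library. The Arg- bar is the lowest and the Met- bar the highest for H3, and the Met- bar of H1 reaches 19.5% with CHX and 20.8% without CHX.

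The histone families differ in their content of arginine. A link between this content and the larger histone share in Arg- cells was not tested. Arginine codons made up a median of 13.6% of codons in H4, 13.2% in H3, 9.23% in H2A, 6.35% in H2B and 1.86% in H1, against 5.61% over 11680 listed genes. In Arg- cells without CHX the family medians of the log2 ratio were 1.39 for H4, 1.54 for H3, 1.54 for H2A, 1.08 for H2B and 0.76 for H1. With CHX they were 0.62, 0.59, 0.14, 0.20 and 0.30. Across replication-dependent genes the Spearman correlation between arginine codon share and log2 ratio was 0.37 without CHX and 0.28 with CHX (49 genes each). This is a description only, because genes of a family share their sequence, the 5 families form 5 clusters of arginine share, and all points share their 2 libraries. Within 1 arginine share the spread was wide, as for the 8 H3 genes without CHX, all at 13.2%, whose log2 ratios ran from 0.86 to 2.42. Leucine codon share had a Spearman correlation of 0.17 with the Leu- ratio without CHX (47 genes) and of -0.15 with CHX (50 genes), and methionine codon share 0.07 (47 genes) and -0.33 (35 genes) with the Met- ratio.

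**Figure D5:**
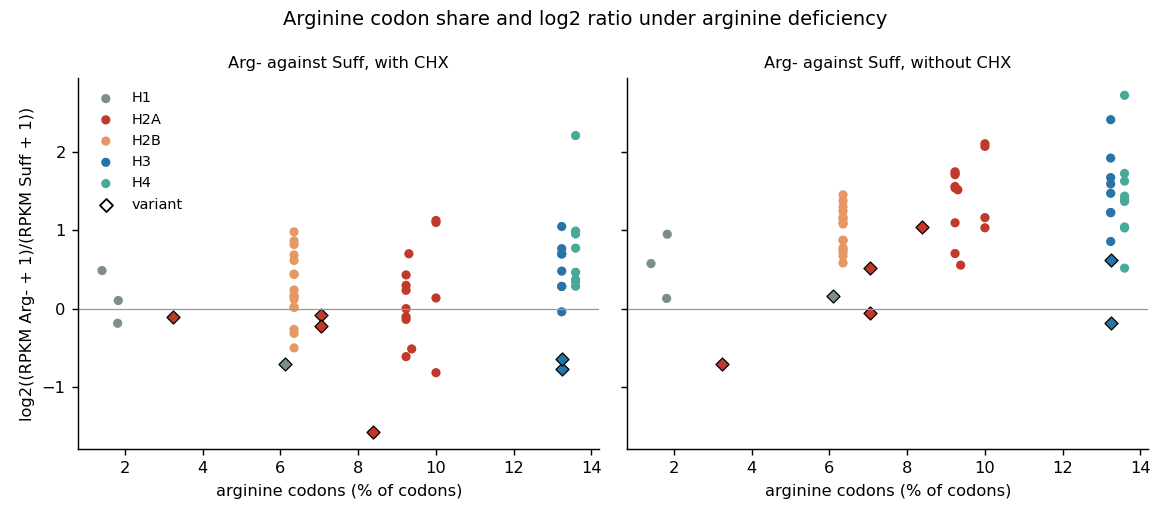
Log2 ratio of Arg- to Suff against the share of arginine codons in percent, with a point per histone gene (1 is not drawn), coloured by family, and variants as outlined diamonds. H1 genes sit at the left and H3 and H4 at 13.2% and 13.6%; the variants H3-3A and H3-3B lie below the replication-dependent H3 genes at the same arginine share in both panels.

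The 3 starved libraries can also be ordered directly within a series. Without CHX, all 47 replication-dependent genes listed in each library had a higher RPKM in Arg- than in Leu- cells, 42 a higher RPKM in Leu- than in Met- cells, and 42 the whole order Arg-, Leu-, Met-. With CHX, all 35 were higher in Leu- than in Met- cells, but 18 were higher in Arg- than in Leu- cells. Among the variants the whole order held for 5 of 7 without CHX and for 0 of 6 with CHX. These orders were not counted over all genes, so they cannot be called particular to histones.

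Genes that act with histones were compared over lists of their own. Of 18 S phase genes (helicase subunits, nucleotide synthesis, cyclins), 17 entered each comparison without CHX, with medians of 0.61 in Arg-, 0.58 in Leu- and 0.24 in Met- cells, against -0.02, 0.14 and 0.32 over all genes. At least 2-fold higher were 4, 5 and 5 genes (8.23%, 6.85% and 20.2% of all genes), and 1, 0 and 1 were at least 2-fold lower (5.95%, 2.06% and 5.34%). The helicase subunits MCM2, MCM3, MCM4 and MCM5 had Met- log2 ratios without CHX of 1.38, 1.02, 1.03 and 1.56. MCM6 and MCM7, of the same helicase, had 0.74 and 0.09. PCNA, the sliding clamp, had -0.68. The genes of nucleotide synthesis were split, with the ribonucleotide reductase subunits RRM1 at 1.17 and RRM2 at -1.23, and TYMS at -0.83. The S phase list in Met- cells without CHX had 10 of 17 genes higher (65.6% of all genes). With CHX the S phase medians were 1.45 (14 genes), 0.83 (14 genes) and 1.44 (9 genes), against -0.23, 0.02 and 0.89 over all genes, with PCNA at -1.03 in Met- cells. The list was not matched in coding length to the genes it was set against. Other genes as short as the histones had medians with CHX of -0.80, -0.44 and -0.11. A part of coding length in the medians of the list was not tested. The Met- medians with CHX are limited by the listing floor. A gene low in Suff could enter that comparison only where it was high in Met- cells.

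Histone chaperones and deposition factors, which carry new histones to DNA, had medians without CHX of -0.09 (22 of 25 genes), 0.26 (23 genes) and 0.27 (23 genes), against -0.02, 0.14 and 0.32 over all genes. Of them, 1, 1 and 4 genes were at least 2-fold higher (8.23%, 6.85% and 20.2% of all genes) and 1, 0 and 0 at least 2-fold lower (5.95%, 2.06% and 5.34%). NASP, a chaperone of H3-H4, had 0.50, 0.81 and 0.51 without CHX. ASF1B, the replication-linked copy of ASF1, had -0.56, -0.15 and -0.99. In Met- cells without CHX it differed from most of the list, of which 17 of 23 genes were higher (65.6% of all genes). CHAF1A and CHAF1B had 0.67 and 1.21 there. With CHX the medians of this list were 1.34 (17 genes), 0.89 (18 genes) and 1.65 (13 genes), against -0.23, 0.02 and 0.89 over all genes. Of them, 9, 7 and 10 genes were at least 2-fold higher (16.6%, 12.1% and 46.7% of all genes) and 2, 0 and 0 at least 2-fold lower (19.7%, 7.28% and 9.79%). This list was not matched to all genes in coding length either, and a part of length was not tested. The Met- median and counts with CHX have the same limit of the listing floor, so they do not describe the whole list.

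Factors of histone mRNA processing and decay had medians without CHX of 0.35, 0.35 and 0.49 over 13 of 18 genes, against -0.02, 0.14 and 0.32 over all genes. Of the 13, 1, 1 and 4 were at least 2-fold higher (8.23%, 6.85% and 20.2% of all genes) and 0 were lower by that much (5.95%, 2.06% and 5.34%). With CHX only 8, 7 and 3 genes could be compared, with medians of 0.88, 0.24 and 1.83, against -0.23, 0.02 and 0.89 over all genes. Of these, 4, 2 and 2 were at least 2-fold higher (16.6%, 12.1% and 46.7%) and 1, 1 and 0 at least 2-fold lower (19.7%, 7.28% and 9.79%). Coding length was again not matched, and its part in these values was not tested. The listing floor limits the Met- values with CHX here as well, since genes low in Met- cells could drop out. SLBP stood at 244 RPKM in Suff, 170 in Arg-, 239 in Leu- and 169 in Met- cells without CHX, and at 307, 183, 340 and 344 with CHX.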

How the data were processed

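Ribosome-protected fragments were sequenced from 8 HEK293T libraries. The authors trimmed adaptors, with cutadapt by the submitters' processing notes and with a Perl script by the study's methods, which also name Trimmomatic for bases of low quality. They aligned reads to the human transcriptome (GRCh38) with Bowtie without mismatch and kept unique hits; the annotation release is not given in the sources used here. They deposited RPKM, 1 value for each Ensembl transcript. File names of the series without CHX point to removal of duplicates, but in 3 of its libraries members held more reads than positions and fragment lengths allow, such as H3C2 in Arg- cells with 21313 reads against 6576 combinations, so removal by position and length cannot have been complete.

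Transcripts were matched to GENCODE release 44 (96.7% to 97.1% found) and the highest transcript of a gene was used. Whole reads were recovered from RPKM times coding length (tolerance 0.02 reads; 97.2% to 97.4% of matched transcripts) and served for intervals and shares. With 1 library per group no test was run. Members and lists were chosen with earlier results of these data known. Genes named are the variants, the 3 highest members of each family without CHX, the 3 largest rises and falls in each comparison with at least 32 reads in both libraries; 1 gene of this rule and the alternative that leaves it out are not reported here, though it counts in the class values. Scripts were tested on simulated data. Tools were matplotlib 3.10.9, scipy 1.17.1, pandas 2.3.3, numpy 2.4.6 and Python 3.11.15. Tried as alternatives were 0.1 as pseudocount, 50 or no minimum of the mean RPKM, missing values as 0, summed or identical transcripts, centring, other denominators and members for shares and, added after seeing the data, at least 50% unique windows, at least 64 reads and genes with reads enough to stay listed after a 2-fold fall.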

Additional observations from a re-analysis of the deposited data

Results flagged for a closer look

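For 15 pairs of gene and medium among the named members, the log2 ratio to Suff had opposite signs in the 2 series with both counting intervals off 0, each from 1 library pair; none of these differences was tested. In Arg- cells, the values with and without CHX were -1.58 and 1.04 for H2AX, -0.82 and 1.16 for H2AC25, -0.61 and 1.10 for H2AC16, -0.51 and 0.56 for H2AC12, -0.10 and 1.56 for H2AC17, and -0.14 and 1.54 for H2AC11. They were -0.64 and 0.62 for H3-3B, -0.70 and 0.17 for H1-10, -0.22 and 0.51 for H2AZ2, and -0.19 and 0.13 for H1-3. Relative to the median of all genes, the Arg- values with CHX of H1-3, H2AC11, H2AC17 and H2AZ2 were above 0.

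In Leu- cells the values were -0.09 and 0.65 for H2AC11, -0.05 and 0.35 for H2AC25, and 0.35 and -0.24 for MACROH2A1. In Met- cells they were -0.85 and 1.26 for H4C11, which has no unique window, and -0.72 and 0.35 for H4C3. Differences between the series in CHX, depth, listing floor and file preparation cannot be told apart.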

How the results depend on the processing

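No called value changed direction under the alternatives run; 10 single ratios near 0 took the other sign after centring. No paired analysis was possible because each group has 1 library. Centring on the median of all genes moved the replication-dependent median to 0.58 in Arg- with CHX, -2.52 in Met- with CHX and -1.45 in Met- without CHX, and the variant median to -1.96 in Met- with CHX and -0.32 in Leu- without CHX. Missing values counted as 0 gave -2.32 in Met- with CHX. The share of reads, over reads on listed transcripts only, was 14.3%, 18.6%, 16.2% and 6.90% with CHX and 5.02%, 12.2%, 6.88% and 2.57% without CHX, in the order Suff, Arg-, Leu-, Met-. Over members listed in all 4 libraries with CHX it was 12.1%, 16.5% and 14.5% in Suff, Arg- and Leu-, and with summed transcripts 17.2% in Arg-. Among the counts at 2-fold that moved by over 1.5 times were these. In Met- without CHX the 4 genes higher became 2 with a minimum mean RPKM of 50, centring, 50% unique windows or 64 reads. With CHX, centring turned 5 genes higher in Arg- into 11, 1 higher in Met- into 0 and 3 variants lower in Met- into 5. Missing values as 0 gave 1 lower in place of 0 in Arg-, 4 higher in place of 2 in Leu- and 41 lower in place of 26 in Met-. With 1 transcript for both libraries, 2 variants in place of 1 were lower in Arg-, and with 50% unique windows 0 in place of 1 was lower in Leu- without CHX. The Met- library with CHX was the shallowest, and 15 replication-dependent genes listed in Suff were under its floor. Limited to genes with reads enough to stay listed after a 2-fold fall, a choice made after seeing the data, 32 of 40 replication-dependent genes in place of 26 of 35 were at least 2-fold lower there, and the share over all genes rose from 9.79% to 49%.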
